A study of Rattus norvegicus with 10 samples.

Results

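Liver transcript levels of 10 genes of cholesterol synthesis and sterol transport were examined in rats fed a high-fat diet with or without mulberry leaf. The genes were Hmgcs1, Idi1, Fdps, Fdft1, Sqle, Lss, Cyp51, Nsdhl, Dhcr7 and Stard4, and a probe set was taken for a gene where the platform annotation gave that symbol and no other. By this rule 9 of the 10 genes had 16 probe sets among 31042 on the array, and 15 of the 16 were bright enough to be tested. Hmgcs1 had no probe set under the rule and was not analysed here. The animals were 10 Wistar/ST rats, 1 Affymetrix array of liver RNA per rat, and all 10 ate the high-fat diet. Mulberry rats (n = 5) received 500 mg of dried leaf powder per kg body weight per day, suspended in carboxymethylcellulose, by gastric probe after an overnight fast, and control rats (n = 5) received 0 mg per kg per day. Livers were taken after 7 weeks. Age and sex are not given in the sources used here. Each sample was a piece of whole liver, so in these data fewer cells of a type and less RNA per cell cannot be told apart.

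Cholesterol is built in the liver from acetyl-CoA through the mevalonate pathway, by way of isoprenoid diphosphates, squalene and lanosterol. Transcription of these enzymes is driven by SREBP2, a membrane-bound factor of the endoplasmic reticulum that is released and enters the nucleus when sterols are scarce and is held back by the Insig proteins when sterols are plentiful. The enzymes are therefore known for rising and falling as a block with the sterol and feeding state of the liver. In order of action, Idi1 isomerises isopentenyl diphosphate, Fdps makes farnesyl diphosphate, Fdft1 joins farnesyl units into squalene, Sqle oxidises squalene, Lss closes the ring to lanosterol, Cyp51 and Nsdhl take part in the removal of methyl groups from lanosterol, and Dhcr7 performs a late reduction to cholesterol. Stard4 carries sterol between membranes.

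Upstream sequence is shown for 4 members whose values between rats are compared below, Idi1, Cyp51 and Fdps, which moved closely together, and Lss, which did not. Promoter sequence from RefSeq (GRCr8) was at hand for 7 of the 10 genes, and the 250 bases before the gene start are printed 5′ to 3′ on the gene's strand. Capitals mark CCAAT on either strand (ATTGG when read on the printed strand), the core of the site bound by NF-Y, a factor known to act together with SREBP2.
Idi1, chr17:66547525-66547774, minus strand: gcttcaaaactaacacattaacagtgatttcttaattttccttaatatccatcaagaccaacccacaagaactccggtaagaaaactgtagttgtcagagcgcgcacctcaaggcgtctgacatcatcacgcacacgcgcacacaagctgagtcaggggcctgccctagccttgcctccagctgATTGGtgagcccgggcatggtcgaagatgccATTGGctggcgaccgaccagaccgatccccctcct
Cyp51, chr4:30991443-30991692, plus strand: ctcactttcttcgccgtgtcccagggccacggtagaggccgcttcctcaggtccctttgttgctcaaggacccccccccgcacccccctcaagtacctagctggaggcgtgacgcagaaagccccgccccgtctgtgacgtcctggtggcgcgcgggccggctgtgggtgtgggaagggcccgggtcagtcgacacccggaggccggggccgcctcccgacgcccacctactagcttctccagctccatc
Fdps, chr2:176804817-176805066, minus strand: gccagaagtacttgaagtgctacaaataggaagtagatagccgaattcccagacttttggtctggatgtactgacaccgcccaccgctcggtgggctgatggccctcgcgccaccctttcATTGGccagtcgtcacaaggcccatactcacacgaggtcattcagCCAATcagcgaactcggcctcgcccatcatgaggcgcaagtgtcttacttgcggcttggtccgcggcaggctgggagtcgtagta
Lss, chr20:12118231-12118480, minus strand: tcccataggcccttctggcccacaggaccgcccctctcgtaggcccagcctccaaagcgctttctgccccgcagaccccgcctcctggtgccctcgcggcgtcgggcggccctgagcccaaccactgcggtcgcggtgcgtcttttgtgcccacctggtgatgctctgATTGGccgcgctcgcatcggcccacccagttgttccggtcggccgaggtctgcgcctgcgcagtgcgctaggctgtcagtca
CCAAT occurred in 5 of the 7 members with an entry, among them Lss, and in 34.0% of 33469 rat promoters of the same length. It lay 66 and 35 bases before the start in Idi1, in Fdps 130 and 85 bases and in Lss 82 bases. It was not found in the window of Cyp51. GGGCGG, the core of the Sp1 site, was present in 5 of the 7 members and in 30.5% of all promoters. The motif TCACNCCAC, a form of the sterol regulatory element, was in 0 of the 7 and in 0.974% of all promoters. These are matches of letters, both strands searched, and not measured binding sites.

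No sterol gene differed between mulberry and control rats by more than the spread between animals. On the log2(intensity + 16) scale, means were higher with mulberry for 4 of the 9 genes and lower for 5, beside 51.3% of all genes higher. Means of linear intensity went the other way for Lss (281 in control, 278 in mulberry) and Dhcr7 (1060 and 1148). The log2 signs of Lss, Fdft1 and Dhcr7 turned with quantile normalization and that of Lss with a median shift. In this fit the largest difference among the 9 was that of Stard4, at -0.27 ± 0.18 (SE) on the log2(intensity + 16) scale. The order was not stable: with array weights Sqle was largest at 0.34, beside -0.15 for Stard4, without control rat 3 it was Sqle (0.39), without mulberry rat 2 Cyp51 (-0.22) and without mulberry rat 4 Idi1 (0.31). In the limma model over all 18625 probe sets tested, 0 of the 9 genes reached an adjusted p under 0.05, as did 0% of all probe sets. At an unadjusted p under 0.05 there were 0 of 9, against 1.79% of 10328 genes, and 0 of the members' 15 probe sets, against 1.74% of all. These p-values measure the spread between rats. Every member's groups overlapped, where over all genes 0.32% had groups that did not. The median difference over the 9 genes was -0.0030, beside 0.0035 over all genes, and the median of the absolute differences was 0.064 beside 0.083. The spread between rats was wide for most of these genes, with a median residual SD of 0.44 on the log2 scale against 0.24 over all genes. For 7 of the 9 it was above the median of all probe sets tested.

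**Figure D1:**
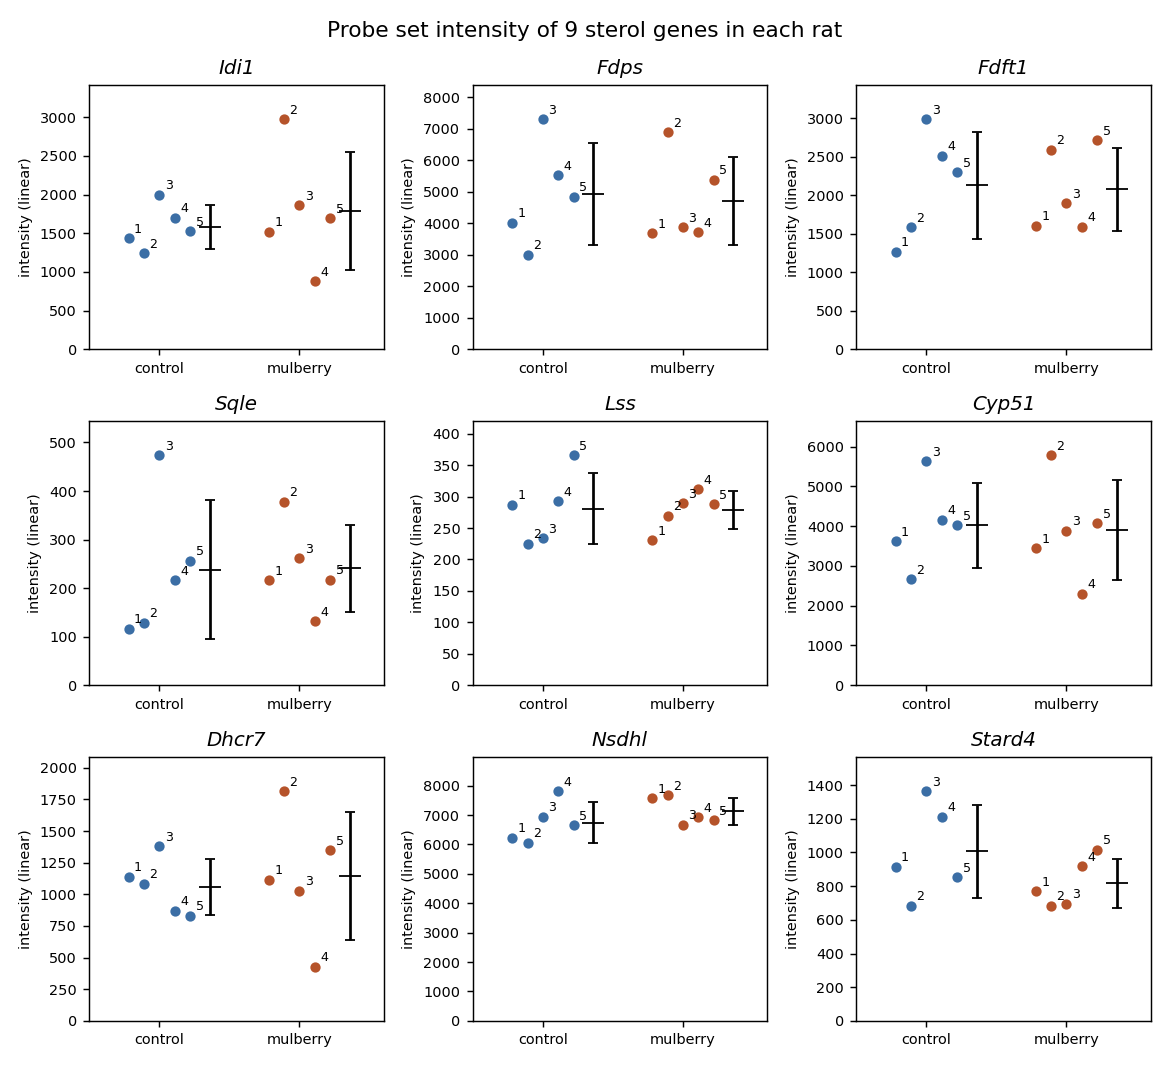
Linear intensity (vertical axis, from 0) of the brightest probe set of each of the 9 genes in every rat, control in blue and mulberry in brown. Points carry the rat number and bars show the mean ± SD of 5 rats. Control and mulberry points overlap in every panel, and control rat 3 and mulberry rat 2 are at or near the top for Idi1, Fdps, Sqle and Cyp51.

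The isoprenoid steps come first. Idi1 had intensities of 1435, 1241, 1998, 1699 and 1528 in control rats 1 to 5 and of 1519, 2972, 1865, 877 and 1697 in mulberry rats 1 to 5. The mulberry rats held both the highest and the lowest animal, and the control rats lay between them. The group means were 1580.1 ± 286 and 1786 ± 761 (SD, n = 5 each), a difference of 0.088 ± 0.25 (SE, 95% interval -0.45 to 0.63, log2). A second, dimmer probe set of Idi1 gave 0.068 ± 0.26. Fdps measured 4013, 2998, 7293, 5520.4 and 4838 in control rats 1 to 5 and 3675, 6885, 3874, 3704 and 5376.5 in mulberry rats 1 to 5. Control rat 3 and mulberry rat 2 stood highest, and the ranges of the groups coincided for most of their length. The difference was -0.053 ± 0.23 (95% interval -0.55 to 0.45, log2), with means of 4932 ± 1621 and 4703 ± 1410.2.

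The squalene steps varied more within the groups than between them. Fdft1, the squalene synthase, had intensities of 1269, 1586, 2984, 2515 and 2297 in control rats 1 to 5 and of 1604, 2588, 1895, 1590.3 and 2718 in mulberry rats 1 to 5. Both groups held low animals, control rats 1 and 2 and mulberry rats 1 and 4. The difference was -0.0060 ± 0.23 (95% interval -0.51 to 0.50, log2) on this probe set and 0.031 ± 0.20 on the other. Sqle, the squalene epoxidase and a rate-limiting enzyme of the pathway, read 116, 129, 474, 216 and 256 in control rats 1 to 5 and 216, 378, 262, 131 and 217 in mulberry rats 1 to 5. Control rat 3 was 4.08 times as high as control rat 1, and the highest and the lowest of the 10 animals were both controls. Its residual SD of 0.65 (log2) was at the 95.4th percentile of all probe sets tested. The difference was 0.11 ± 0.34 with a 95% interval from -0.63 to 0.85 on the log2 scale, or 0.648-fold to 1.80-fold.

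Lss was the steadiest of the enzymes between farnesyl diphosphate and lanosterol. It read 287, 225, 234, 293 and 366 in control rats 1 to 5 and 231, 269.8, 289.6, 312 and 288 in mulberry rats 1 to 5. All mulberry rats lay within the control range. The means of 281 ± 56.6 and 278 ± 30.2 gave a difference of 0.000026 ± 0.15 (95% interval -0.32 to 0.32, log2). Another Lss probe set was below the filter level of 61.1 in all 10 rats, at 6.72 to 11.2, and was not tested.

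Among the sterol steps, Cyp51 and Dhcr7 varied widely and Nsdhl little. Cyp51, the lanosterol demethylase, measured 3613, 2659, 5639, 4159.6 and 4016 in control rats 1 to 5 and 3447, 5785, 3884, 2297 and 4075 in mulberry rats 1 to 5. As for Idi1, mulberry rat 2 was the highest and mulberry rat 4 the lowest of the 10. The difference was -0.064 ± 0.23 (95% interval -0.56 to 0.43, log2) and -0.17 ± 0.21 on its second probe set. Dhcr7 had intensities of 1138, 1083, 1380.4, 869 and 832 in control rats 1 to 5 and of 1114, 1816, 1030.1, 429 and 1348 in mulberry rats 1 to 5. Mulberry rat 2 was 4.23 times as high as mulberry rat 4, and these animals were the highest and lowest of all. The difference was -0.0030 ± 0.30 (95% interval -0.65 to 0.65, log2). Nsdhl ranged from 6065 to 7816, with a median of 6659, in control and from 6679 to 7669.8, with a median of 6922, in mulberry rats. Its residual SD of 0.12 (log2) was at the 5.94th percentile of all probe sets, and the difference was 0.084 ± 0.088 (95% interval -0.11 to 0.27, log2), with 0.12 ± 0.11 on the other probe set.

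Stard4, the sterol carrier, read 915, 684, 1365, 1212 and 854 in control rats 1 to 5 and 770.3, 685, 697, 917 and 1017 in mulberry rats 1 to 5. The highest 2 animals were control rats 3 and 4, and the remaining control rats fell within or beside the mulberry range. The difference of -0.27 ± 0.18 had a 95% interval from -0.67 to 0.13 (log2) and missed the limma test (adjusted p = 0.9999, unadjusted p = 0.168). Of its other probe sets, one gave -0.24 ± 0.17 and a dim one -0.13 ± 0.24. Without control rat 2 the difference was -0.39, with an unadjusted limma p of 0.0399 and an adjusted p = 0.999995, and without control rat 3 it was -0.15.

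**Figure D2:**
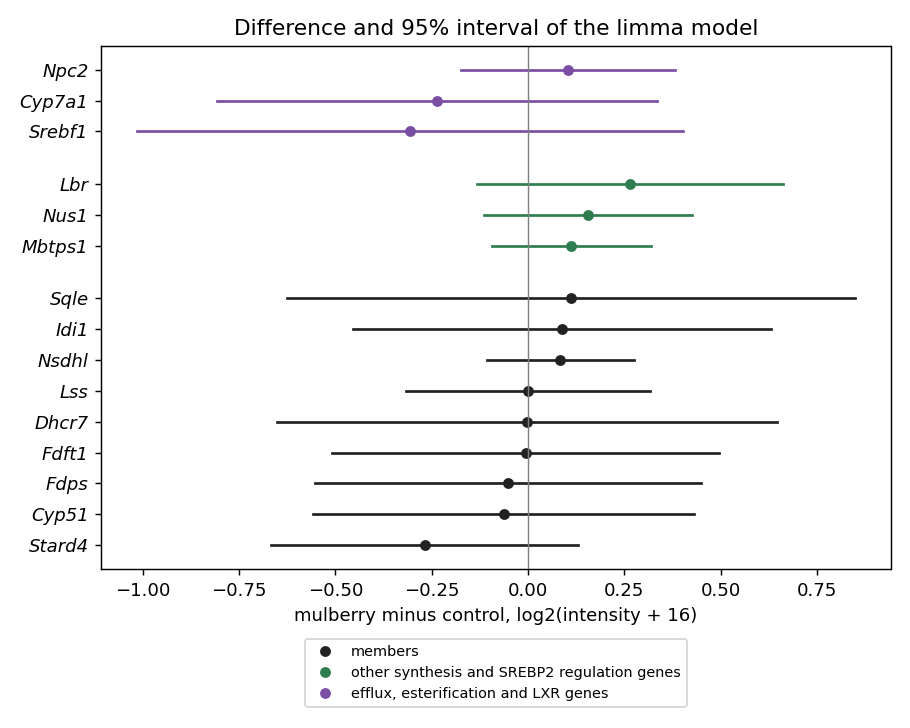
Difference in log2(intensity + 16), mulberry minus control (horizontal axis), with the 95% interval of the limma model, for the 9 members and the 3 genes with the smallest unadjusted p in each of the other lists. All 15 intervals include 0, and those of Sqle, Dhcr7 and Srebf1 are the widest.

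For the rest of the pathway and its regulators, too, no gene passed the test. The list of other cholesterol synthesis steps and of SREBP2 control had 23 tested genes (31 listed). On the log2 scale 10 of them were higher on average with mulberry and 13 lower, with a median difference of -0.014. By limma 0 of the 23 passed an adjusted p of 0.05, as did 0% of all probe sets. At an unadjusted p of 0.05 there were 0 of the 23, against 1.79% of 10328 genes, a share at which few or none would be met in a list of this size. Those with the smallest p were Lbr, the lamin B receptor that also has sterol reductase activity, at 0.26 ± 0.18 (SE), Nus1, a subunit of the dolichol-forming prenyltransferase, at 0.16 ± 0.13, and Mbtps1, the protease that makes the first cut in SREBP2, at 0.11 ± 0.095. Srebf2, which encodes SREBP2, averaged 605 ± 128 in the 5 controls and 629 ± 119 in the 5 mulberry animals (SD), a difference of 0.061 ± 0.17. Insig1, the sterol-sensing anchor of SREBP and itself a target of it, was at 3293 ± 1281 and 2784 ± 1199, a difference of -0.26 ± 0.33, which moved between -0.48 and -0.049 with a rat left out. These last 2 were singled out for their role after their values were seen.

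Genes that move cholesterol out of the cell, esterify it or sense oxysterols were also measured. That list had 19 tested genes (21 listed). On the log2 scale 8 of them were higher on average with mulberry and 11 lower, with a median difference of -0.025. With limma, 0 of the 19 passed at an adjusted p of 0.05, beside 0% of all probe sets. At an unadjusted p of 0.05 it was also 0 of the 19, beside 1.79% of 10328 genes. Srebf1, the lipogenic relative of SREBP2, was at -0.31 ± 0.33 (SE), and without mulberry rat 4 it was at 0.0045. Cyp7a1, which starts the conversion of cholesterol to bile acids, was at -0.24 ± 0.26, or -0.063 without control rat 4. Npc2, which hands cholesterol out of lysosomes, was at 0.10 ± 0.13.

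Several of the enzymes moved together between individual rats of a group. After each group's mean was subtracted, the log2 values of every pair of the 9 genes were correlated over the 10 rats, 36 pairs in all. Pearson's r ranged from -0.47 to 0.95 with a median of 0.51, beside a median of 0.0045 over all pairs of the 10328 genes. An r above 0.7 was found in 11 of the 36 pairs (30.6%) and in 3.46% of all gene pairs. By an exact permutation test that exchanged rats within groups (14400 arrangements, two-sided, Benjamini-Hochberg over the 36 pairs), 8 pairs passed an adjusted p of 0.05, and 7 did with Spearman's rho. Each gene enters 8 of the pairs, over the same 10 rats, so the pairs are not independent of each other. All genes also share the scaling of their array, and the members were chosen as one pathway.

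**Figure D3:**
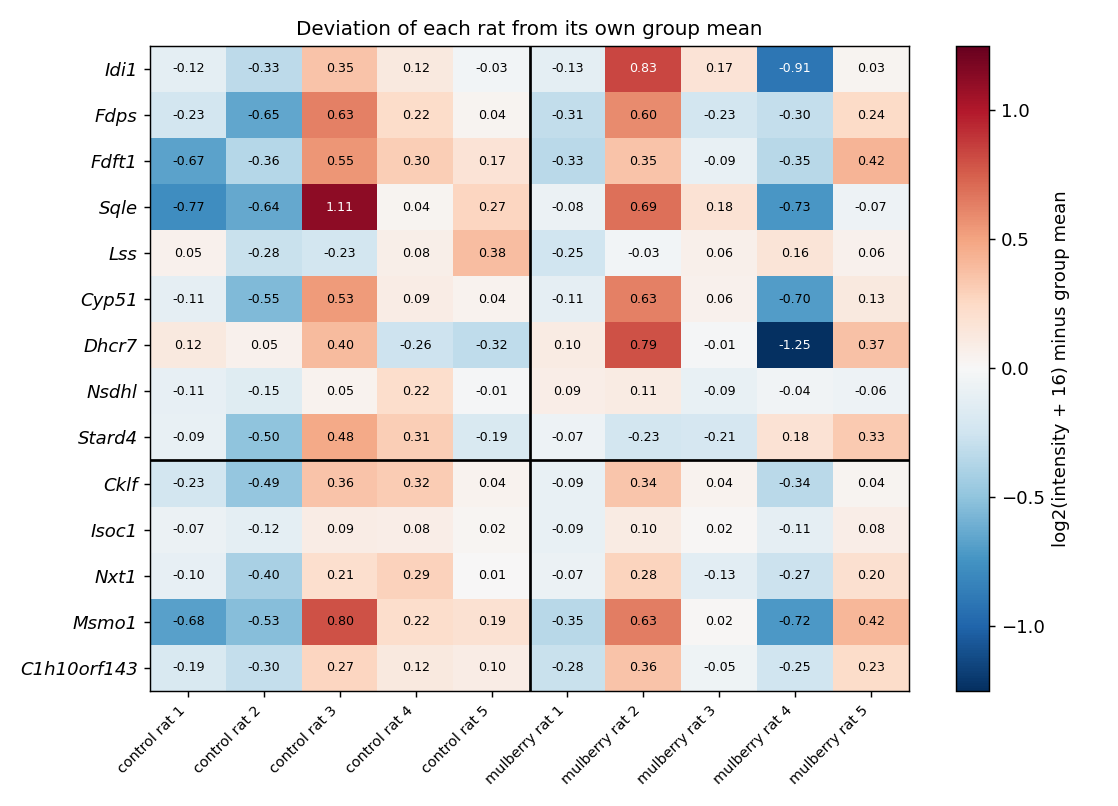
Deviation of each rat (columns) from its own group mean in log2(intensity + 16), for the 9 members (upper rows) and the 5 other genes most like them (lower rows); red is above and blue below the group mean. Control rat 3 and mulberry rat 2 are red and control rat 2 and mulberry rat 4 blue in Idi1, Fdps, Fdft1, Sqle and Cyp51, while the row of Lss follows no such order.

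The 8 pairs joined Idi1, Fdps, Fdft1, Sqle and Cyp51. Idi1 and Cyp51 had the highest correlation, with Pearson's r of 0.95 (exact permutation p = 0.00028, adjusted p = 0.0100) and Spearman's rho of 0.95 (exact permutation p = 0.000764, adjusted p = 0.0138). The r was 0.95 again without the 2 rats farthest from the median of Idi1, and it stayed between 0.86 and 0.97 in all alternative settings tried. Fdps and Cyp51 followed, at r = 0.89 and rho = 0.94 (exact permutation p = 0.00111 and 0.000764, adjusted p = 0.0183 and 0.0138), or r = 0.74 without the 2 rats farthest from the median of Fdps. Fdps and Fdft1, consecutive enzymes, had r = 0.86 and rho = 0.90 (exact permutation p = 0.0050 and 0.0026, adjusted p = 0.0300 and 0.0238), and r = 0.81 without the 2 farthest rats. The other 5 pairs past the threshold had r between 0.74 and 0.88. Without the 2 farthest rats, Fdps and Sqle fell from 0.83 to 0.58 and Fdft1 and Sqle from 0.83 to 0.70. By that measure Idi1 and Fdps were at 0.85, Idi1 and Sqle at 0.86 and Sqle and Cyp51 at 0.96. The pairs that fell missed the threshold with Spearman's rho (exact permutation test, adjusted p = 0.066 and 0.054). Fdft1 and Cyp51 passed with rho only (rho = 0.87, exact permutation test, adjusted p = 0.0238) and missed with r (r = 0.75, adjusted p = 0.0528). For comparison, the 2 probe sets of one gene correlated with each other at r = 0.96 for Cyp51 and for Fdft1, at 0.71 for Idi1 and at 0.59 for Nsdhl. The brightest probe set of Idi1 was thus closer to that of Cyp51 (0.95) than to the other of its own gene.

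Rats with most members high and rats with most members low were found in both groups. The number of the 9 members above the rat's own group mean was 2, 1, 8, 8 and 5 in control rats 1 to 5 and 2, 7, 4, 2 and 7 in mulberry rats 1 to 5. Control rats 3 and 4 and mulberry rats 2 and 5 were the high animals by this count, and control rats 1 and 2 and mulberry rats 1 and 4 the low ones. Without mulberry rat 2 only 1 pair passed the adjusted threshold, without control rat 3 there were 2, and without both there were 0, in a test with fewer arrangements of the rats. The median r was 0.48, 0.43 and 0.45 in these settings, and 8 of the 36 pairs still had an r above 0.7 when both rats were left out. Fewer pairs also passed without control rat 5 (3), control rat 4 (4), mulberry rat 4 (4), or control rat 2, mulberry rat 1 or mulberry rat 3 (5 each), where the median r lay between 0.42 and 0.54.

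**Figure D4:**
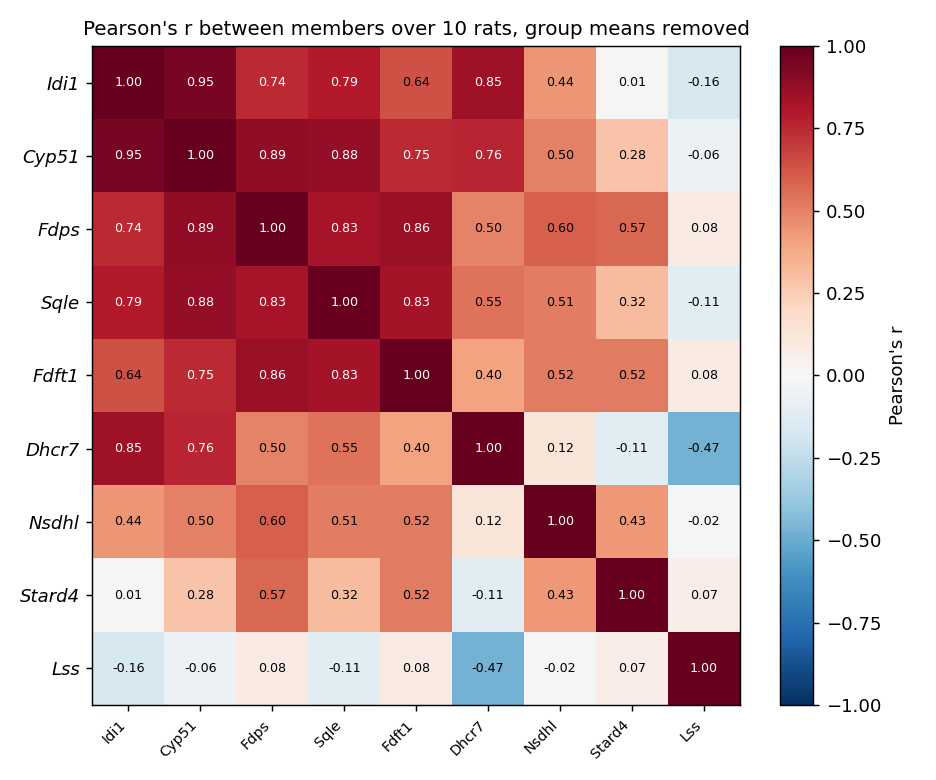
Pearson's r between the 9 members over 10 rats, with group means removed (colour scale from -1 to 1). Idi1, Cyp51, Fdps, Sqle and Fdft1 form a block of r between 0.64 and 0.95, and the row of Lss lies between -0.47 and 0.08.

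Not all members of the pathway followed. Lss had r between -0.47 and 0.083 with the other 8 genes, and none of its pairs passed the test. Dhcr7 correlated with Idi1 at r = 0.85 and with Cyp51 at r = 0.76 (exact permutation p = 0.0297 and 0.0285, adjusted p = 0.0892 for both), with Spearman's rho of 0.56 and 0.66 (adjusted p = 0.334 and 0.194). Its r with Idi1 fell to 0.21 without the 2 rats farthest from the median of Idi1, mulberry rats 2 and 4, so that relation rests on those rats. Nsdhl had r up to 0.60 and Stard4 up to 0.57, and neither had a pair past the threshold. Here, too, single rats weighed on the value. Without the 2 rats farthest from the median of the first gene, r rose from 0.011 to 0.76 for Idi1 and Stard4, from 0.57 to 0.78 for Fdps and Stard4 and from 0.083 to 0.60 for Fdps and Lss. For other pairs r fell, from 0.32 to -0.083 for Sqle and Stard4, from -0.060 to -0.49 for Lss and Cyp51 and from 0.12 to -0.29 for Dhcr7 and Nsdhl. Over the alternative settings Fdps and Stard4 lay between 0.34 and 0.89. For Stard4 the 2 brighter probe sets correlated with each other at r = 0.82, while the dim one was at -0.21 against the brightest.

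**Figure D5:**
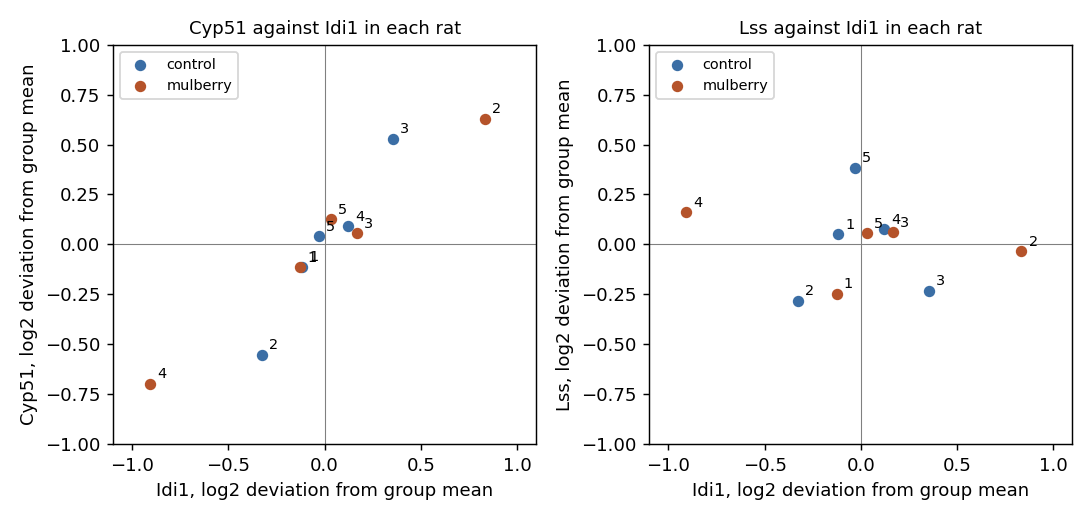
Cyp51 (left) and Lss (right) against Idi1 in each rat, as log2 deviations from the group mean, control in blue and mulberry in brown with rat numbers. Cyp51 follows Idi1 along a line (r = 0.95), with mulberry rats 2 and 4 at its ends, and Lss does not (r = -0.16).

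The per-rat order was also compared with measures of the arrays and of other cell types. Each member's deviations were scaled to unit SD and averaged, which gave control rats 1 to 5 values of -0.53, -1.08, 0.92, 0.52 and 0.17 and mulberry rats 1 to 5 values of -0.30, 0.92, -0.13, -0.86 and 0.37. The median intensity of the array ran the opposite way, at 111, 114, 101, 101 and 104 in the control and 105, 97.5, 118, 114 and 109 in the mulberry rats (Pearson's r = -0.81, Spearman's rho = -0.77, and r = -0.77 without the 2 farthest rats). With the arrays brought to one median, 12 of the 36 member pairs had r above 0.7 (median r 0.62, beside 0.045 and 4.72% over all gene pairs), and 10 pairs passed the adjusted threshold. That step lifts arrays with a low median, mostly those with the members high, so a higher r follows in part from the step itself. With quantile normalization 10 pairs had r above 0.7 (median r 0.41, beside 0.012 and 3.42%), and 8 passed the adjusted threshold. For Gapdh, the signal at the 3′ end of the transcript over that at the 5′ end, a sign of RNA integrity, had log2 values of 0.34, 0.34, -0.012, 0.090 and 0.32 in control rats 1 to 5 and of 0.12, 0.27, 0.34, 0.024 and 0.29 in mulberry rats 1 to 5. Among the controls the lowest ratios were those of rats 3 and 4, the highest for the sterol genes. In the mulberry group the lowest were those of rats 4 and 1, the lowest for the sterol genes. For beta-actin the same log2 ratio was higher in every rat, at 1.671, 1.879, 1.511, 1.701 and 2.096 in control rats 1 to 5. In mulberry rats 1 to 5 it was 1.489, 1.945, 1.597, 1.292 and 1.861. Across the mulberry rats this was the same order as for the sterol genes, with rat 2 highest and rat 4 lowest. Among the controls it was not, and rat 3, the highest for the sterol genes, had the lowest beta-actin ratio.

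Hepatocyte markers stood at the top of the array, with 9 tested genes (among them Alb, Apoa1 and Ttr) between the 94.9th percentile and the maximum of mean level, fitting the label of liver. Their summed intensity was 220108, 217056, 257179, 230739 and 221663 in control rats 1 to 5 and 259091, 216272, 216887, 264855 and 225691 in mulberry rats 1 to 5. In the control group this was the same order of rats as for the sterol genes. In the mulberry group it ran nearly the other way, with rats 4 and 1 highest and rat 2 lowest. Macrophage and Kupffer cell markers (7 of 10 tested) summed to 8452 to 16989 in control and 7327 to 15451 in mulberry rats, with control rat 3 the highest control, mulberry rat 2 at 13915 and the low mulberry rat 4 at 15451, the highest mulberry rat. Red blood cell markers (3 of 4 tested) summed to 17238 to 30016 in control and 23221 to 27439 in mulberry rats. Control rats 3 and 4 were the highest controls. In the mulberry group rat 4, the lowest for the sterol genes, was the highest at 27439, and rats 2 and 5 were at 24993 and 23221. For endothelium (7 tested), stellate cells (6), bile duct (2), lymphocytes (3) and adipocytes (1) the summed ranges of the groups overlapped. Of the markers tested, 0 passed an adjusted limma p of 0.05. The part of median intensity, RNA integrity and hepatocyte, macrophage and red blood cell RNA in the covariation was not tested beyond these values.

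Outside the members, the 5 genes with the highest correlation to the per-rat mean of the members were Cklf (r = 0.97), a chemokine-like factor, Isoc1 (0.95), Nxt1 (0.95), a cofactor of nuclear export, Msmo1 (0.95), the sterol methyl oxidase that works beside Nsdhl, and C1h10orf143 (0.95), out of 10319 genes over 10 rats. Of all those genes, 471 (4.56%) had r above 0.7. Msmo1 read 1697, 1883, 4749, 3173 and 3119.8 in control rats 1 to 5 and 2029, 4022, 2613, 1560.4 and 3457 in mulberry rats 1 to 5. Control rat 3 and mulberry rat 2 were highest in their groups, as for Idi1, Fdps, Sqle, Cyp51 and Dhcr7. In Fdft1, Lss, Nsdhl and Stard4 another rat was highest in at least 1 group. Msmo1 is named here because of its likeness to the members. The difference of Msmo1 between the groups was -0.077 ± 0.30 (SE, log2). The likeness of Cklf and Isoc1 was lower when all probe sets of a gene were averaged (r = 0.76 and 0.74), and that of Isoc1 was 0.76 with quantile normalization.

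The same measure was taken for the 2 lists. Of the 23 other synthesis and SREBP2 genes, 8 had r above 0.7 with the members (34.8%, median r 0.40), against 4.56% and a median of 0.016 over all genes outside the members. They were Msmo1, Acss2 (r = 0.92) and Acat2 (0.91), which supply and condense acetyl-CoA, Hsd17b7 (0.88) and Tm7sf2 (0.78) of the later sterol steps, Fads1 (0.81), a fatty acid desaturase, Mvd (0.80), the mevalonate diphosphate decarboxylase, and Srebf2 itself (0.73). They are named because of these values. Insig1 was at 0.59 and Ggps1, which makes geranylgeranyl diphosphate, at -0.61. Of the 19 efflux, esterification and oxysterol genes, 2 had r above 0.7 (10.5%, median r 0.35), Lpcat3 (0.79) and Stard5 (0.70), and Srebf1 was at 0.31. These are descriptions over 10 arrays that share their scaling, and the difference between the lists was not tested.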

How the data were processed

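The authors deposited linear intensity values, 1 per probe set and array, for 10 livers. The submitters' processing notes name MAS5 and affy, with no version or role. In the deposited table the mean intensity after trimming 2% of values at each end was 500.0 on every array, so the intensities were taken as already scaled. Median intensity was 97.5 to 118 per array, and the number of arrays limits the precision.

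From these, log2(intensity + 16) was computed, which understates differences of dim probe sets. Left out were 57 control probe sets and every probe set whose mean log2 value did not exceed the 40th percentile (an intensity of 61.1), which left 18625. Mulberry and control were compared two-sided with limma 3.58.1 in R 4.3.3 (lmFit and eBayes, trended variance prior). P-values were adjusted by Benjamini-Hochberg over all 18625. A gene was represented by its brightest tested probe set. The fit and the permutation test were tested on simulated data. Tables and plots used Python 3.11.15 (numpy 2.4.6, pandas 2.3.3, matplotlib 3.10.9, scipy 1.17.1).

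Named were all members, the 3 genes of each other list with the smallest unadjusted p and the 5 genes most like the members. The members and lists were chosen with earlier results of these data known. Marker lists covered hepatocytes, macrophages, endothelium, stellate cells, bile duct, lymphocytes, red blood cells and adipocytes. Symbols came from the platform annotation, and all 16 member probe sets matched GRCr8 genes by Entrez identifier. Groups and rat numbers came from the sample titles. Same-numbered rats of the 2 groups had correlations of deviations from -0.33 to 0.096, so the numbers were not taken as pairs. Alternatives were pseudocounts of 1 and 64, no filter or a 60th percentile filter, quantile normalization, one median for all arrays, eBayes without a trend, limma's array weights, a block for the rat number, the mean of a gene's probe sets, leaving out each rat and, for the covariation, leaving out control rat 3 and mulberry rat 2 together, which was chosen after seeing the data.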

Additional observations from a re-analysis of the deposited data

Results flagged for a closer look

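In 52 groups of 5 rats tested over the named genes, 2 had a rat set apart from the other 4 by a gap above Dixon's 95% critical value of 0.71 of the group's range, which chance gives in about 1 group in 20, so 2 of 52 is no more than chance would give. Mbtps1 in mulberry rat 5 was at an intensity of 937, below the other mulberry rats at 1051 to 1069. Srebf1 in control rat 3 was at 1865, below the other control rats at 3211 to 3813. The same rat had 8 of the 9 sterol genes above its group mean. These intensities are linear, while the gaps tested were on the log2 scale, at 0.87 of the range for Mbtps1 and 0.76 for Srebf1.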

How the results depend on the processing

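The counts of genes past the limma threshold, 0 of the sterol genes and 0 in both other lists, were the same under every alternative. Over all probe sets tested the count was 0 as well each time, so the list counts are not particular to these genes and could not differ. With the rat number as a replicate block they were also 0, at 286 probe sets with an unadjusted p under 0.05 against 325 without it. Of the control rats, rat 5 alone correlated best with the mulberry rat of its own number (0.086), so the numbers are only names here.

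Several differences turned their sign, most of them close to 0 but also that of Srebf1 (-0.31), and the cause was not tested. With array weights the values were 0.10 for Cyp51, 0.18 for Dhcr7, 0.16 for Fdft1, 0.12 for Fdps, 0.15 for Msmo1 and -0.049 for Lss. With quantile normalization they were 0.0063 for Dhcr7, 0.014 for Fdft1 and -0.010 for Lss. With a pseudocount of 64 they were 0.0039 for Dhcr7 and -0.0016 for Lss, with a median shift -0.015 for Lss, and with the mean of probe sets 0.013 for Fdft1. Leaving out each rat in turn gave Cyp51 -0.22 to 0.11, Dhcr7 -0.20 to 0.31, Fdft1 -0.17 to 0.13, Fdps -0.22 to 0.10, Idi1 -0.12 to 0.31, Lss -0.070 to 0.096, Msmo1 -0.25 to 0.12, Sqle -0.083 to 0.39, Srebf1 -0.50 to 0.0045 and Srebf2 -0.036 to 0.14. Stard4 and Nsdhl kept their sign in every alternative, between -0.39 and -0.15 and between 0.047 and 0.14 with a rat left out. Insig1 (-0.48 to -0.049) and Cyp7a1 (-0.39 to -0.063) moved widely with no change of sign.

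The number of correlated pairs past the adjusted threshold, 8 of 36, was 10 with the median shift, 5 with the mean of probe sets and 1 to 8 with a rat left out. It was 0 without control rat 3 and mulberry rat 2, an alternative chosen after seeing the data, with 8 rats and fewer arrangements to permute. Signal over background limits the dim probe sets of Lss and Stard4.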
